A study of Arabidopsis thaliana with 6 samples.

Results

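The 4 nicotianamine synthase genes of Arabidopsis thaliana, NAS1 to NAS4, and ZIF1, the gene of a vacuolar nicotianamine transporter, were followed across all 6 libraries of an anther RNA-seq series. They were chosen by locus (AT5G04950, AT5G56080, AT1G09240, AT1G56430 and AT5G13740), and all 5 were found among 33027 loci. Whole anthers came from wild-type Col-0 plants, 3 libraries from Fe-deficient plants and 3 from controls, with the stage written in the labels as PMC-TC, an abbreviation not interpreted here. All plants grew with iron for 28 days, 10 on agar plates and 18 in hydroponics, and were then kept for 18 days without added NaFe-EDTA (Fe-deficient) or with it (control; 50 mM as the labels write it, a unit that could not be checked). Both groups were kept in modified Hoagland medium. The labels do not state separate plants for the replicates, so a p-value here reflects no more than how these libraries vary, possibly for technical reasons. In bulk tissue, fewer cells of a type and less RNA per cell cannot be told apart.

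Nicotianamine is a small chelator of iron, zinc and copper. Nicotianamine synthase builds it from S-adenosylmethionine and releases methylthioadenosine, which the methionine cycle recycles. Complexes of nicotianamine with metals move through the phloem and between cells, YSL proteins carry them across membranes, and ZIF1 loads nicotianamine into the vacuole. Plants that cannot make nicotianamine are chlorotic and poorly fertile.

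The Fe-deficient anthers did not share one picture of these genes. In Fe-deficient 3, NAS4 and ZIF1 were far above every other library, NAS4 95.3-fold and ZIF1 7.43-fold above the 3 controls. In Fe-deficient 1, ZIF1 was 1.51-fold above the controls and NAS3, not NAS4, was the synthase with counts. In Fe-deficient 2, the synthases had 4 counts in all and ZIF1 was 1.20-fold above the controls, a difference that depended on the scaling. NAS1 and NAS2 had between 0 and 2 counts in each of the 6 libraries. ZIF1 was the single member with enough counts to be tested, and it did not pass the threshold (edgeR's quasi-likelihood test, Benjamini-Hochberg adjusted p = 0.371).

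The 6 libraries held 16818176 to 22710901 estimated counts, with 24444 to 25208 loci at 1 count or more. The stamen identity genes AP3, PI, AG and SPL summed to 1144, 1091 and 825.7 CPM in Fe-deficient libraries 1, 2 and 3, against 1003, 955.9 and 785.7 CPM in the controls. Libraries differed in other markers. The 12 tapetum and pollen wall genes summed to 1265, 1015 and 2071 CPM in Fe-deficient libraries 1, 2 and 3, against 5211, 2696 and 2970 CPM in control libraries 1, 2 and 3, with DYT1 at 0 in Fe-deficient 2. The 12 late pollen genes summed to 6602, 7771 and 2362 CPM in Fe-deficient libraries 1, 2 and 3, against 711.6, 2723 and 2553 CPM in the controls, with ANX2 at 0 in control 1. Fe-deficient 3 thus lay within the control range for late pollen and below it for the tapetum and pollen wall genes. For NAS4 and ZIF1 it stood furthest above the control range. The phloem companion cell genes SUC2 and AHA3 summed to 335.3, 294.7 and 327.3 CPM in Fe-deficient libraries 1, 2 and 3, against 243.8 to 278.5 CPM in the controls, with SUC2 highest in Fe-deficient 3 at 102.1 CPM and AHA3 there at 225.2 CPM, against 217.9 to 223.3 CPM in the controls. The 4 carpel and ovule genes summed to 5.32, 3.18 and 9.41 CPM, against 7.94 to 16.9 CPM in the controls, and the 3 green tissue genes to 2129, 2234 and 3089 CPM, against 2856 to 3604 CPM. The part of these differences in the NAS and ZIF1 values was not tested.

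The promoters of NAS4 and ZIF1 are shown because these genes stood out in the same library, and that of NAS3 because it did not. Each line gives the 250 bases before the annotated gene start, 5′ to 3′ on the coding strand, read from the TAIR10.1 genome with RefSeq gene starts. The NAS4 stretch lies at chr1:21136585-21136834, the ZIF1 stretch at chr5:4432047-4432296 and the NAS3 stretch at chr1:2984579-2984828, all on the plus strand, and none overlaps another annotated gene. Capitals mark CANNTG, the E-box that bHLH transcription factors bind.
NAS4: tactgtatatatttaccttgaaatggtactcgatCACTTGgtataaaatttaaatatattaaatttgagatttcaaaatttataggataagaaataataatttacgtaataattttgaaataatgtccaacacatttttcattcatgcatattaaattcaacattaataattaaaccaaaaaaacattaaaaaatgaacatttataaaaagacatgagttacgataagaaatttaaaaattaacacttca
ZIF1: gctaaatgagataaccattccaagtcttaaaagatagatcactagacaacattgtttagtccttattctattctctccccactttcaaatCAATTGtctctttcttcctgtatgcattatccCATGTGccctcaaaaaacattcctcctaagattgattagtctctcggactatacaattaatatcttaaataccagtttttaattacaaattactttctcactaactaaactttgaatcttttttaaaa
NAS3: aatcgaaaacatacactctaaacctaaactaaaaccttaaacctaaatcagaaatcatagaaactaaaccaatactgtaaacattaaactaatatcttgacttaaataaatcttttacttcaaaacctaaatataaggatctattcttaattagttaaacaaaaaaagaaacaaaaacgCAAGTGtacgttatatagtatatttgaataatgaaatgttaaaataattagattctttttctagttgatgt

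The E-box was searched as CANNTG, which reads the same on both strands, and the G-box CACGTG, a subset of it, was searched besides. NAS4 held 1 E-box (CACTTG, 216 bases before the start), NAS3 held 1 (CAAGTG, at 71 bases) and ZIF1 held 2 (CAATTG at 160 and CATGTG at 128 bases). NAS2 held 1 and NAS1 held 0. An E-box stood in 55.3% of 27443 promoters of protein-coding genes of the same length, so its presence sets none of these apart. No member held CACGTG in this window, which 6.49% of promoters did. The letters TGTCGACA, the core of the element bound by the zinc-deficiency factors bZIP19 and bZIP23, were also in none of the 5 windows and in 0.262% of all promoters. These are matches of letters, not sites.

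NAS1 (AT5G04950, TAIR10.1 chromosome 5, 1457641 to 1459039, minus strand, 1 exon) had 0, 0 and 1 counts in Fe-deficient libraries 1, 2 and 3, and 0 counts in all 3 controls. Taking 3 counts as the limit, a count of 0 allows up to 0.170 to 0.202 CPM (counts relative to library totals scaled by TMM, edgeR's normalization) in Fe-deficient 1 and 2 and up to 0.125 to 0.163 CPM in the controls, counting error only. The two-sided 95% exact Poisson limits, drawn in the plot of CPM by library, are wider, at 0.209 to 0.248 CPM and 0.154 to 0.201 CPM. NAS2 (AT5G56080, chromosome 5, 22711141 to 22712441, minus strand, 1 exon), which is known to increase in zinc-deficient roots, had 0, 1 and 2 counts in Fe-deficient libraries 1, 2 and 3 and 0, 1 and 0 counts in controls 1, 2 and 3. Neither gene was detectable above a few reads at this depth in either group, and the groups overlapped. The NAS2 transcript in the deposited files has 963 bases, the length of its coding sequence, so reads from its untranslated ends would not be counted. RefSeq annotates the gene with longer ends. The deposited transcripts of NAS1, NAS3 and NAS4, with 1246, 1250 and 1144 bases, are also shorter than their RefSeq spans, so the limit holds for them in part.

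NAS3 (AT1G09240, chromosome 1, 2984829 to 2986231, plus strand, 1 exon) had 28, 2 and 0 counts in Fe-deficient libraries 1, 2 and 3, against 1, 1 and 15 counts in controls 1, 2 and 3. These are 1.88, 0.1135 and 0 CPM in the Fe-deficient libraries, against 0.0503, 0.0544 and 0.627 CPM in the controls. Fe-deficient 1 and control 3 held nearly all of its reads, and the groups overlapped. In Fe-deficient 1 NAS3 was 6.90-fold above the 3 controls pooled (95% exact interval 3.65 to 13.4, counting error only), and nearly all counts of those controls came from control 3. Fe-deficient 3, the library high in NAS4, had no NAS3 count and allows up to 0.131 CPM by the limit of 3 counts. NAS3 did not reach the counts needed for the main test. Without a low-count filter its edgeR log2 fold change was 1.32 (SE 1.62, adjusted p = 0.702).

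NAS4 (AT1G56430, chromosome 1, 21136835 to 21138277, plus strand, 1 exon) had 0, 1 and 140 counts in Fe-deficient libraries 1, 2 and 3 and 1, 0 and 3 counts in controls 1, 2 and 3. It stood at 6.12 CPM in Fe-deficient 3 (95% exact Poisson interval 5.15 to 7.23), against at most 0.0567 CPM in the other Fe-deficient libraries and at most 0.125 CPM in a control. The difference was carried by 1 library. For Fe-deficient 3 against the 4 counts of the 3 controls, the ratio was 95.3 with an exact interval of 36.4 to 354.5, counting error only. This compares 1 library with 3, not the conditions. The filter kept NAS4 out of the main test. Without the filter its edgeR log2 fold change was 4.91 (SE 2.08, adjusted p = 0.423), and with Fe-deficient 3 left out as well it was -0.90 (SE 1.62, adjusted p = 0.743). DESeq2 set its p to missing as an outlier and gave an adjusted p of 0.161 with that outlier rule switched off, where it called 2.08% of loci higher and 1.25% lower. In limma on log2(TPM + 1) and log2(TPM + 0.1) the difference was 0.91 (adjusted p = 0.515) and 1.59 (adjusted p = 0.617), so its size depended on the method.

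All 30 estimated counts of the 5 genes were whole numbers (within 0.001), and each gene had a single transcript in the files. NAS3 and NAS4, with 79.0% identical coding bases, shared 2 of 1373 and 1413 distinct words of 31 bases in their RefSeq transcripts. The RefSeq transcripts are longer than the deposited ones behind the counts, and words shared by the deposited ones were not counted. NAS1 and NAS2, at 82.75%, shared 19 of 1369 and 1271. The other pairs of synthases were 66.6% to 68.7% identical and shared 0 such words. ZIF1 shared 0 with ZIFL1, a related gene at 68.7% identity.

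**Figure D1:**
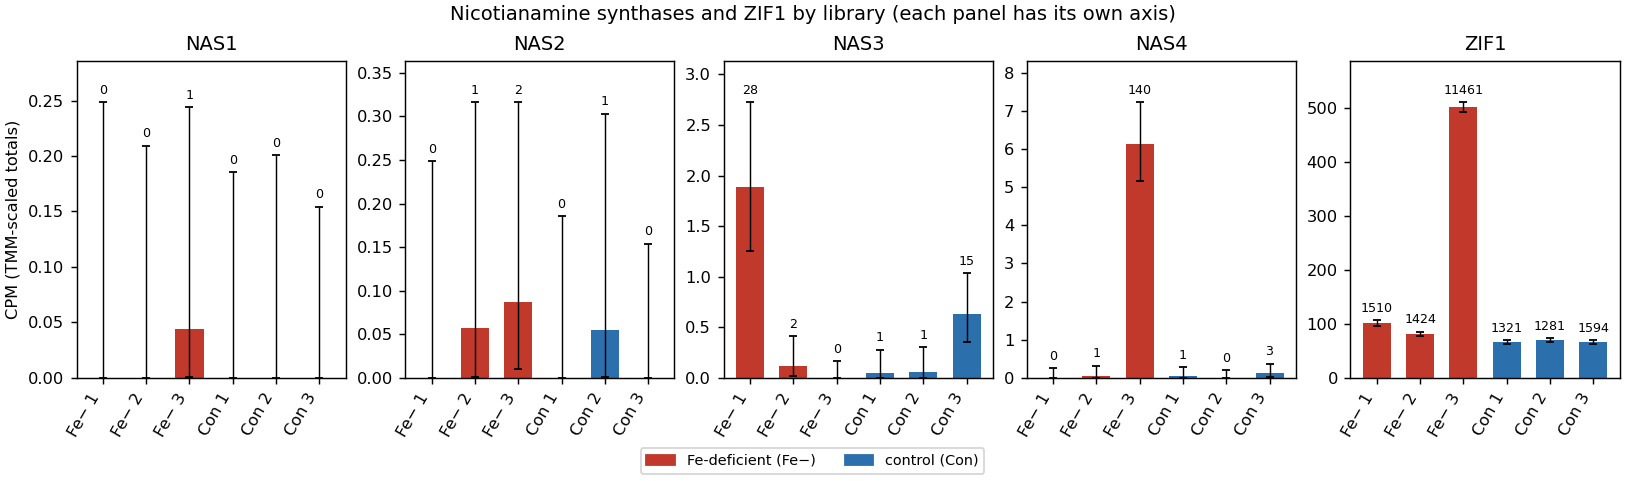
CPM of each gene (vertical axis, TMM-scaled totals, a separate axis per panel) in the 3 Fe-deficient libraries (red) and the 3 controls (blue). Bars are single libraries, whiskers are 95% exact Poisson intervals for counting error, and the number above each bar is its count. NAS4 has 140 counts in Fe-deficient 3 and at most 3 elsewhere, and ZIF1 has 11461 counts there and at most 1594 elsewhere.

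ZIF1 (AT5G13740, chromosome 5, 4432297 to 4437148, plus strand, 16 or 18 exons in its 2 RefSeq transcripts) belongs to the major facilitator superfamily. It had 101.6, 80.8 and 501.4 CPM in Fe-deficient libraries 1, 2 and 3, against 66.4, 69.7 and 66.6 CPM in control libraries 1, 2 and 3. The controls lay close together while the Fe-deficient libraries spread widely, and on this scale no Fe-deficient library overlapped the controls. Among all 21267 tested loci, 10.0% had all Fe-deficient libraries above all controls, so this separation is common here. The means were 227.9 ± 237.0 CPM in Fe-deficient anthers and 67.6 ± 1.85 CPM in controls (SD, n = 3 each). The log2 fold change was 1.75 (SE 0.71) with an unadjusted p of 0.0456 and an adjusted p of 0.371 by edgeR's quasi-likelihood test. Of all tested loci 0 passed at an adjusted p under 0.05 in either direction (0.00% higher and 0.00% lower), while 7.34% had an unadjusted p under 0.05 with a higher value and 6.09% with a lower one. DESeq2 called 439 loci higher and 278 lower (2.01% and 1.27% of those it tested), and ZIF1 was not among them (DESeq2 adjusted p = 0.109).

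Over the 3 controls pooled, ZIF1 was 7.43-fold higher in Fe-deficient 3 (95% exact interval 7.18 to 7.70), 1.51-fold in Fe-deficient 1 (1.42 to 1.60) and 1.20-fold in Fe-deficient 2 (1.13 to 1.27), intervals of counting error only. In Fe-deficient 3 it stood 4.93-fold above the highest other library. Of all tested loci 1.79% were at least 2-fold above the highest other library there, and ZIF1 ranked 67 of 21267 by this ratio with 0.5 CPM added to both levels. With Fe-deficient 3 left out, edgeR gave ZIF1 0.43 on the log2 scale (SE 0.13) at an adjusted p of 0.109, still with both remaining Fe-deficient libraries above the controls.

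The place of Fe-deficient 2 depended on the scale. On plain totals ZIF1 had 89.8, 73.4 and 529.0 CPM in Fe-deficient libraries 1, 2 and 3, against 70.3, 73.3 and 70.2 CPM in the controls, so Fe-deficient 2 and control 2 were level. In deposited TPM (transcript abundance scaled for length and library size) ZIF1 had 47.0, 39.1 and 291.2 in Fe-deficient libraries 1, 2 and 3, against 38.5, 39.9 and 40.95 in controls 1, 2 and 3. There Fe-deficient 2 lay inside the control range, and leaving ribosomal RNA loci out of the TPM did not move it above the controls (40.6 against 41.5 to 42.0). Fe-deficient 1 and Fe-deficient 3 were above all controls on each of the 5 scales compared, and on them Fe-deficient 3 was between 2.87 and 2.90 above the control mean on the log2 scale.

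**Figure D2:**
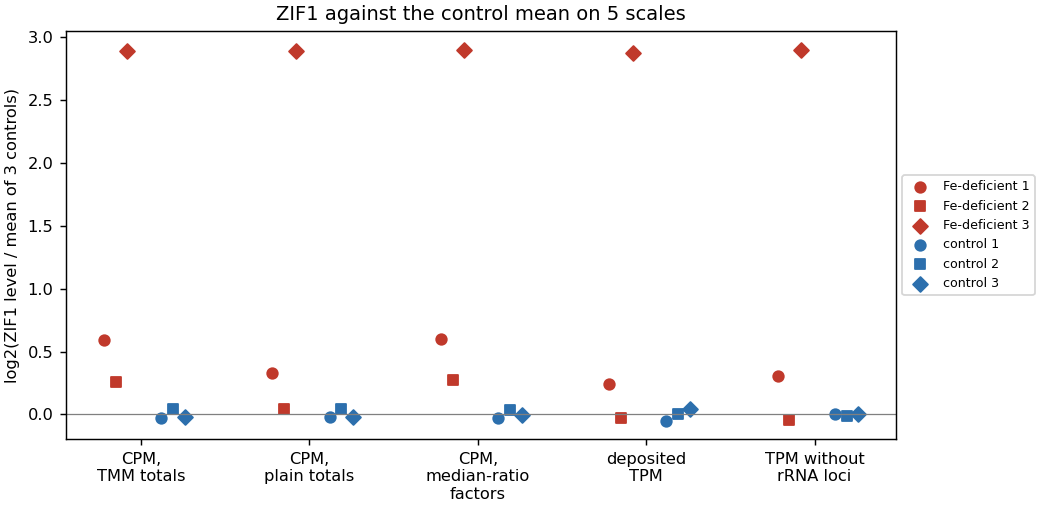
ZIF1 level of each library over the mean of the 3 controls (vertical axis, log2) on 5 scales (horizontal axis), Fe-deficient in red and left of controls in blue, with marker shape giving the library number. Fe-deficient 3 lies between 2.87 and 2.90 on the 5 scales, and Fe-deficient 2 lies above the controls on TMM or median-ratio scaling, at 0.26 and 0.27, and below their mean in TPM, at -0.03 and -0.04.

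Per length, the transporter outweighed the synthases in each library. ZIF1 TPM was 32.5 and 43.0 times the summed TPM of the 4 synthases in Fe-deficient 1 and 3, against 52.3 times in control 3. In the other libraries the synthases had 2 to 4 counts in all, too few for a ratio. The synthases summed to 1.45, 0.206 and 6.77 TPM in Fe-deficient libraries 1, 2 and 3, against 0.1025, 0.124 and 0.7835 TPM in the controls. ZIF1 stood above 86.0%, 82.5% and 98.1% of the loci with a count in Fe-deficient libraries 1, 2 and 3, and above 81.17% to 81.8% in the controls. NAS4 stood above 38.4% in Fe-deficient 3. Ordered by TPM, ZIF1 came first in all 6 libraries, while the order among the synthases changed from library to library and, at 0 to 3 counts, could not be resolved beyond counting error except for NAS3 in Fe-deficient 1 and control 3 and NAS4 in Fe-deficient 3.

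Of 12 other nicotianamine-linked transporters, 1, OPT3, was at least 2-fold above every other library in Fe-deficient 3, as ZIF1 was. Of all tested loci 1.79% were. The log2 fold change of OPT3 was 3.05 (SE 1.20, edgeR adjusted p = 0.367). In TPM, the phloem metal transporter OPT3 had 23.7, 7.15 and 251.5 in Fe-deficient libraries 1, 2 and 3, against 10.6, 7.43 and 17.8 in controls 1, 2 and 3. In Fe-deficient 3 it was thus next to ZIF1 in level, and below ZIF1 in all other libraries. ZIF2, a vacuolar relative of ZIF1 linked to zinc tolerance, had 55.4, 33.1 and 37.3 TPM in Fe-deficient libraries 1, 2 and 3, against 25.65, 25.05 and 32.97 TPM in the controls, and was highest in Fe-deficient 1. Its CPM was above every control in the 3 Fe-deficient libraries, which held for 10.0% of all tested loci (log2 fold change 0.83 with an SE of 0.27, edgeR adjusted p = 0.336). ZIFL1, whose product moves potassium and acts on auxin transport, had 10.4, 11.2 and 11.3 TPM in Fe-deficient libraries 1, 2 and 3, against 4.25, 10.9 and 11.5 TPM in the controls, where the groups overlapped and Fe-deficient 3 lay within the control range.

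**Figure D3:**
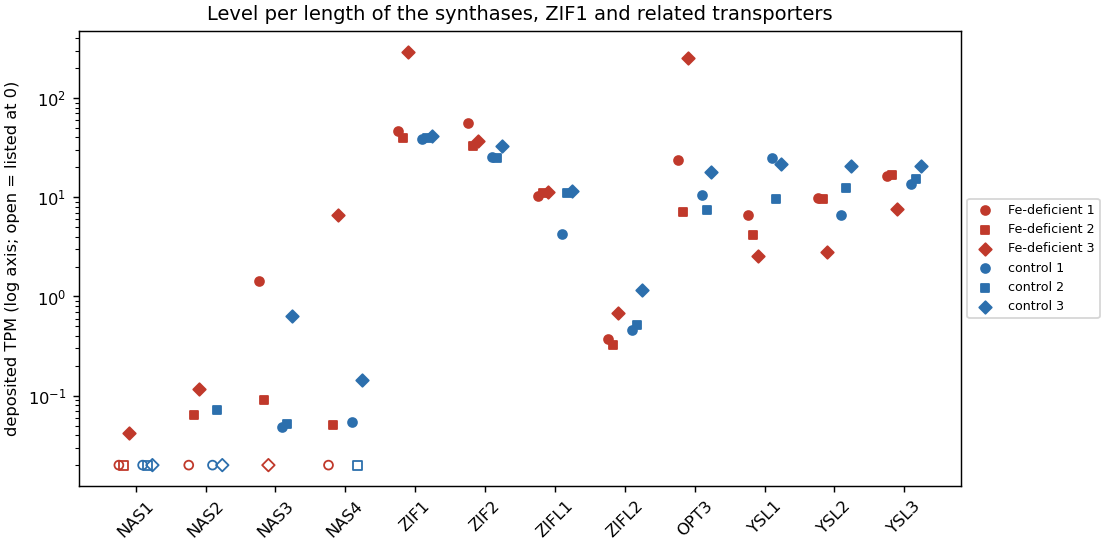
Deposited TPM (vertical log axis) of the synthases, ZIF1 and related transporters in the Fe-deficient libraries (red, left) and controls (blue, right), with marker shape giving the library number; open markers at the bottom are listed at 0. ZIF1 lies at 38.5 to 47.0 TPM outside Fe-deficient 3 and at 291.2 TPM in it, and the synthases lie at most at 1.45 TPM but for NAS4 at 6.61 TPM in Fe-deficient 3.

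YSL1, YSL2 and YSL3 carry metal-nicotianamine complexes. The YSL genes did not share a direction in Fe-deficient 3: these 3 had their lowest CPM there, while YSL5 (23.5 CPM) and YSL8 (14.1 CPM) had their highest, against at most 19.4 and 13.45 CPM in the other libraries. For YSL8 this depended on the scale, with 6.43 TPM in Fe-deficient 3 and 6.505 TPM in control 3. YSL5 was highest in Fe-deficient 3 in TPM too, at 10.57 against 9.23 in control 3. YSL1 had 18.9, 11.35 and 5.73 CPM in Fe-deficient libraries 1, 2 and 3, against 56.85, 22.1 and 45.95 CPM in control libraries 1, 2 and 3 (log2 fold change -1.80, SE 0.52, edgeR adjusted p = 0.329; DESeq2 adjusted p = 0.0269). YSL3 had 48.3, 46.75 and 18.0 CPM in Fe-deficient libraries 1, 2 and 3, against 31.8, 36.1 and 45.8 CPM in the controls. YSL2 had 27.3, 25.4 and 6.26 CPM, against 14.7, 27.7 and 42.5 CPM in the controls. The groups overlapped for YSL2 and YSL3 and did not for YSL1. Of the 12 genes on the list of nicotianamine-linked transporters, all tested, edgeR called 0 higher and 0 lower. DESeq2 called 0 higher and 1 lower, YSL1, against 2.01% and 1.27% of all loci it tested. A positive log2 fold change was found for 5 of the 12, and for 50.3% of all tested loci (median -0.03, against 0.0025 over all tested loci). Without Fe-deficient 3 it was 6, with a median of 0.11, and without control 3 it was 8, with a median of 0.17. All Fe-deficient libraries lay under the lowest control for 2 of them, YSL1 and YSL4, and for 10.3% of all tested loci. They lay over the highest control, in CPM, for ZIF2 and ZIFL1, and for 10.0% of all tested loci. In Fe-deficient 3, 1 of the 12, YSL2, was at most 0.5 of the lowest other library, and 1.21% of all tested loci were. YSL7, of the same family, had 205.7, 181.7 and 83.95 CPM in Fe-deficient libraries 1, 2 and 3, against 79.97, 105.6 and 105.6 CPM in control libraries 1, 2 and 3.

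The genes of S-adenosylmethionine supply and methylthioadenosine recycling had no member that was high in Fe-deficient 3 alone. Of 16 genes, all tested, edgeR called 0 higher and 0 lower. A positive log2 fold change was found for 11, and for 50.3% of all tested loci (median 0.14, and 11 with a median of 0.18 without Fe-deficient 3). With upper-quartile scaling in edgeR it was 8, where the median over all loci was -0.08. In the limma test on TPM 7 were positive, where the median over all loci was shifted to -0.20. Of the 16, 0 were 2-fold above all other libraries in Fe-deficient 3. Of all tested loci 1.79% were, so a count of 0 does not set this list apart. SAM2, an S-adenosylmethionine synthetase, had 469.6, 360.7 and 286.3 CPM in Fe-deficient libraries 1, 2 and 3, against 227.9, 264.5 and 262.4 CPM in the controls (log2 fold change 0.56, SE 0.21, edgeR adjusted p = 0.360). MAT3, another synthetase, and the methionine synthase ATMS2 were highest in Fe-deficient 1 and lower in Fe-deficient 3 than in each control, MAT3 with 1054, 916.1 and 385.4 CPM in Fe-deficient libraries 1, 2 and 3 against 474.2 to 539.1 CPM in the controls. ATMS2 had 1429, 1087 and 429.9 CPM in Fe-deficient libraries 1, 2 and 3, against 516.6 to 623.3 CPM in the controls. For SAM1 the log2 fold change was 0.48 (SE 0.26), and for ATMS3 it was 0.46 (SE 0.27). MTN1, the main methylthioadenosine nucleosidase, which removes the by-product of nicotianamine synthesis, had 94.3, 107.8 and 98.0 CPM in Fe-deficient libraries 1, 2 and 3, against 72.9, 91.0 and 95.8 CPM in the controls. ARD4, an acireductone dioxygenase of the recycling route, had 39.8, 42.8 and 33.8 CPM, against 29.45 to 31.1 CPM in the controls (log2 fold change 0.35, SE 0.13, edgeR adjusted p = 0.358).

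The regulators known from roots differed in whether they shared the pattern of NAS4 and ZIF1. PYE, a bHLH factor that binds and represses NAS4 and ZIF1 in roots, had 15.1, 14.5 and 46.1 CPM in Fe-deficient libraries 1, 2 and 3, against 11.4, 10.0 and 9.31 CPM in the controls. MYB72 and MYB10, which promote NAS4 in roots, differed from each other. MYB72 had 2.76, 0.851 and 2.62 CPM in Fe-deficient libraries 1, 2 and 3, against 0.151, 0.326 and 0.251 CPM in the controls (log2 fold change 3.07, SE 0.60, edgeR adjusted p = 0.329; DESeq2 adjusted p = 0.00452). Of 17 iron deficiency regulators DESeq2 called 1 higher, MYB72, and 0 lower, against 2.01% and 1.27% of all loci it tested. BTS, bHLH38, bHLH39, bHLH100, bHLH101 and IMA1 to IMA3 had no DESeq2 adjusted p. MYB72 was as high in Fe-deficient 1, where NAS4 had 0 counts, as in Fe-deficient 3. MYB10 had 1.88, 2.21 and 2.62 CPM in Fe-deficient libraries 1, 2 and 3, against 5.48, 3.37 and 2.88 CPM in the controls (log2 fold change -0.80, SE 0.34, edgeR adjusted p = 0.373). All Fe-deficient libraries were below all controls for MYB10, and for 10.3% of all tested loci. FIT, the root regulator of iron uptake, had 0.538, 0.908 and 1.01 CPM, against 0.352, 0.762 and 1.09 CPM in the controls, and the groups overlapped.

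Of 17 iron deficiency regulators, 14 were tested, edgeR called 0 higher and 0 lower, and 13 had a positive log2 fold change, as 50.3% of all tested loci did (median 0.80 over these 14). Over all 17 genes the median was 2.18 in edgeR with no filter and 2.21 in DESeq2, and over 16 it was 2.63 with a filter on mean CPM. Without Fe-deficient 3 it was 10 of 14, with a median of 0.35. At least 2-fold above every other library in Fe-deficient 3 were 9 of the 17, and 6 of the 14 tested, where 1.79% of all tested loci were. These 9 were PYE, BTS, bHLH38, bHLH39, bHLH100, bHLH101 and IMA1 to IMA3. The iron-signalling peptide gene IMA1 had 1.95, 0.511 and 127.0 CPM in Fe-deficient libraries 1, 2 and 3, against 0.151, 0 and 0.961 CPM in control libraries 1, 2 and 3, and in Fe-deficient 3 IMA2 reached 282.1 and IMA3 156.4 CPM. ILR3, bHLH104, bHLH115, bHLH34 and URI, the bHLH factors that act with or above them, were not, with ILR3 at 103.3, 95.1 and 81.3 CPM in Fe-deficient libraries 1, 2 and 3 against 72.6 to 85.65 CPM in the controls.

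Genes of the zinc deficiency response, to which NAS2, NAS4 and ZIF1 are also linked in roots, did not stand out in Fe-deficient 3. Of 12, 8 were tested, and edgeR called 0 higher and 0 lower. A positive log2 fold change was found for 2 (median -0.23), and for 50.3% of all tested loci. In Fe-deficient 3, 0 of the 12 were 2-fold above every other library. Of all tested loci 1.79% were, so a count of 0 does not set this list apart. The count of positive genes was not stable: it was 1 of 8 without Fe-deficient 1, 4 of 9 without control 1 or without control 3, 4 of 11 with no filter, 4 of 12 with DESeq2 and 0 of 8 in both TPM tests. The factors bZIP19 and bZIP23 had 25.8 and 10.7 CPM in Fe-deficient 3, against 18.9 to 22.7 and 12.7 to 17.9 CPM in the controls. ZIP4, a zinc importer induced by zinc shortage, had 41.3, 38.3 and 24.9 CPM in Fe-deficient libraries 1, 2 and 3, against 28.2, 31.3 and 36.0 CPM in the controls, and the groups overlapped. The zinc exporter HMA2 had 80.2, 81.4 and 91.0 CPM, against 143.8, 121.8 and 97.2 CPM in the controls (log2 fold change -0.52, SE 0.17, edgeR adjusted p = 0.339). All Fe-deficient libraries were below all controls for HMA2, and for 10.3% of all tested loci. The zinc importers ZIP5, ZIP9 and IRT3 had CPM values that overlapped between the groups, with log2 fold changes of -0.16, -0.55 and -0.30. Single libraries set these sizes: IRT3 was -0.75 without Fe-deficient 1 and -0.01 without Fe-deficient 3, and ZIP5 was -0.25 without control 2 and -0.05 without control 1.

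**Figure D4:**
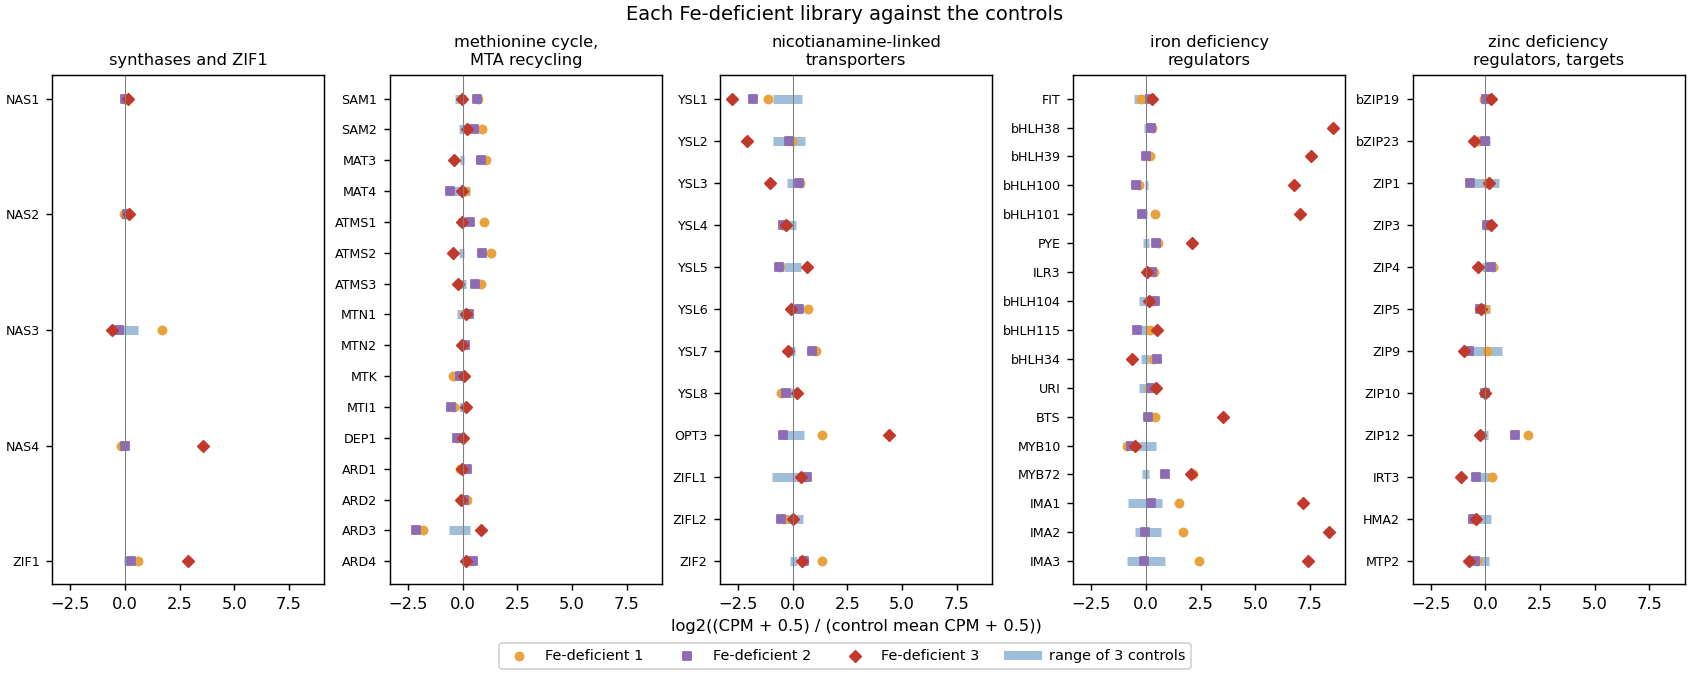
Log2 of CPM plus 0.5 in each Fe-deficient library over that of the control mean (horizontal axis) for the 5 genes and 4 gene lists; blue bars span the 3 controls. In Fe-deficient 3 (red diamonds) NAS4 and ZIF1 (6.12 and 501.4 CPM) stand with OPT3, PYE, BTS, the group Ib bHLH genes and the IMA genes on the right. Of the zinc and methionine cycle lists 0 genes are 2-fold above every other library there, and 1.79% of all tested loci are.

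The loci most alike NAS4 in pattern were bHLH38, bHLH100 and bHLH39, with Pearson r of 0.9958, 0.9956 and 0.9954 for log2 of CPM plus 0.5 over 6 libraries, among 16781 loci with a mean of at least 5 CPM. Those most alike ZIF1 were the cytochrome P450 gene CYP81D8 (r = 0.9984), ORG1 (0.9968) and AT1G62420 (0.9954). CYP81D8 had 3.97, 3.29 and 32.5 CPM in Fe-deficient libraries 1, 2 and 3, against 2.01 to 2.39 CPM in the controls. ORG1 had 57.3, 38.8 and 485.7 CPM, against 28.35 to 36.4 CPM in the controls. These correlations are descriptions: the loci share libraries and scaling, and Fe-deficient 3 lies far from the other 5 libraries in each. NAS1, with 1 count in all, had r = 0.9967 with NAS4, above each of the 3 loci named for it, and 0.9787 with ZIF1, so r here says little more than that a locus was highest in Fe-deficient 3. NAS4, bHLH38, bHLH39, bHLH100, CYP81D8 and AT1G62420 also passed the cuts on mean CPM through that library alone. Of the loci named as most alike, only ORG1 was above the cut in the other libraries too. NAS4 and ZIF1 had r = 0.9666 with each other, and NAS3 had r = -0.3769 with NAS4.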

How the data were processed

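RNA from whole anthers of 6 Arabidopsis Col-0 samples, 3 Fe-deficient and 3 control, was sequenced single-end from TruSeq v2 libraries, per the labels' protocols. Per the submitters' processing notes, Trimmomatic 0.35, Salmon 0.12.0 and TAIR10 were used. The deposited files give, per transcript, estimated counts, TPM and length by the authors, as the file headers name them. Estimated counts were summed over the transcripts of a locus and rounded, TPM was summed, and 75.3% of transcript counts were whole (within 0.001). Depth was 16818176 to 22710901 counts per library, and intervals and floors (3 counts) cover counting error only.

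The main test was edgeR 4.0.16 (quasi-likelihood, TMM, filterByExpr, R 4.3.3) on 21267 loci with Benjamini-Hochberg adjustment at 0.05. Members removed by the filter were taken from the same fit without it. Alternatives used DESeq2 1.42.0 and limma 3.58.1, other scalings and filters, and each library left out. On simulated data of this comparison over 21267 loci, with 50 loci changed per fold size, 10% of those changed 2-fold were recovered, then 54% at 4-fold, 80% at 8-fold and 88% at 16-fold, with 7 false calls of 123. The simulation drew each locus independently around a common mean, with no library set apart as Fe-deficient 3 was. These shares therefore cannot be carried over to the real libraries, where 0 loci were called. No library pair of 15 was identical. The members, gene lists and named genes were chosen with earlier results of these data known. The rule for named genes took the members, up to 6 loci of each list with the lowest p in the main fit, the regulators PYE, MYB10, MYB72 and FIT, the transporters ZIF2, YSL1, YSL3 and OPT3, and for pattern likeness the 3 loci with the highest Pearson r among loci with a mean of at least 5 CPM, for members with a mean of at least 0.5 CPM. Gene structures and promoters came from TAIR10.1 with RefSeq annotation (Python 3.11.15). Protein sequences were not used here. Other genes named with values (YSL2, YSL5, YSL8, ZIFL1, MTN1, ILR3 and bZIP19, and the regulators high in Fe-deficient 3) were chosen after their values were seen.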

Additional observations from a re-analysis of the deposited data

How the results depend on the processing

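ZIF1 had a positive log2 fold change in all 17 alternatives, 0.43 to 2.16, and passed the threshold in none (adjusted p 0.109 to 0.799); leaving out single libraries gave 0.43 to 2.16, the lowest without Fe-deficient 3. NAS4, taken without the low-count filter at 4.91, was 5.11 with DESeq2, 0.91 and 1.59 in the TPM tests with pseudocounts of 1 and 0.1, and -0.90 with Fe-deficient 3 left out as well. The count of loci called higher, 0 with edgeR, was 439 with DESeq2, 469 with DESeq2 without its outlier rule, and 1 with limma on log2(TPM + 1) and on log2(TPM + 0.1); called lower were 278, 282, 2 and 1. Leaving out any single library gave 0 and 0. The cause was not tested. At an unadjusted p under 0.05, edgeR had 1560 higher and 1296 lower, and 3628 and 3155 without Fe-deficient 3. TPM scaling shifted the median of all loci to -0.20 with a pseudocount of 1. Some named genes changed sign: bHLH100 (-0.54 to 6.20 leaving out single libraries, and -0.54 without Fe-deficient 3 and without a filter), ZIP9 (-1.004 to 0.13) and ZIP4 (-0.0106 to 0.32, and -0.11 in both TPM tests). Same-numbered libraries had deviation correlations of -0.178, 0.456 and -0.102, and differently numbered ones -0.357 to 0.339. Deviations from a mean of 3 libraries constrain each other, so these values cannot decide whether numbers pair the libraries. With the replicate block in edgeR ZIF1 was 1.21 (adjusted p = 0.433) and 0 loci were called in either direction. Counts of 0 to 2 leave NAS1 and NAS2 unresolved at this depth.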

Other observations

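NAS4 was 1 of 17 loci with at most 3 counts in each of the other 5 libraries and at least 140 counts, its own count, in Fe-deficient 3, a rule chosen after the values were seen. Applied to each other library in turn, the same rule found 0 loci. The group held the iron-responsive bHLH38 with 4529 counts and bHLH39 with 2121. It also held the pathogen-response genes BGL2 with 548 and PR1 with 278, the ZIP family metal transporter gene ZIP7 with 168, and the seed storage gene SESA2 with 220 counts in Fe-deficient 3. The rest were AT1G47405, AT2G03130, DTX1, AT4G12735, RLP23, PCR1, TAT3, PNP-A, AT2G05420 and ARCK1, with 149 to 550 counts.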
